A study of Mus musculus with 11 samples.

Results

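Interleukins are secreted messengers of immune, epithelial and stromal cells, and their receptors are the surface chains through which target cells read them. The array has 72 genes whose single annotated symbol starts with Il followed by a digit, with Il34 set aside, out of 18194 genes with a probe set of their own. These 72 genes have 114 of the 45101 probe sets, and each gene was read from its probe set with the highest mean log2 signal, whatever its difference between regions. By role, 33 are receptor chains, 30 are ligands, 7 are inhibitors or decoy receptors and 2 (Il4i1, an amino acid oxidase, and Il1bos, an antisense transcript of Il1b) are neither. All 72 were found in RefSeq's gene table through their Entrez ID. A further 3 probe sets that carry an Il symbol beside another symbol were left out.

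RNA came from the testis of 7-week W/Wv mice, whose compound mutation of the receptor gene Kit depletes germ cells, so that no group here is wild type. Each testis was cut into the rete testis (RT), the Sertoli valve (SV) and the convoluted seminiferous tubules (ST), after trypan blue injected through the efferent ducts had made the regions visible. Each array was hybridized with RNA pooled from 20 testes, with 3 RT, 4 SV and 4 ST arrays. SV lies between RT and ST, and the authors held it highly likely that the SV pieces included some RT cells. The comparison asks which interleukin genes mark the duct system, which mark the valve and which mark the tubule. Because the pieces are bulk tissue, fewer cells of a type and less RNA per cell cannot be told apart.

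Most interleukin receptors are built of a ligand-specific chain and a shared chain. Members of the IL-1 family signal through paired receptor chains and the adaptor MyD88 to NF-kB, while cytokines of the gamma chain, IL-6 and IL-10 families signal through JAK kinases and STAT factors. IL-17 receptors use the adaptor Act1, the product of Traf3ip2. In the testis, IL-1 alpha of Sertoli cells and IL-6 are known as local messengers, and RT is known as a place where macrophages and other leukocytes gather around the duct epithelium.

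The regional labels were checked against markers. All 7 measured rete testis markers were higher in RT than in ST and 5 of 8 Sertoli cell markers were lower, with none in the opposite direction. The summed signal of the rete markers was 17897–28154 in the RT, 3031–6921 in the SV and 604–922 in the ST arrays. SV replicate 3 had the lowest rete sum of the 4 SV arrays and the highest Sertoli sum. It was the lowest SV array in 10 of the 12 interleukin genes that were higher in RT than in ST. Over all 72 interleukin genes it was the lowest in 28, and the share over all genes higher in RT was not counted. Replicates 1 and 2 also had a higher 3′ signal of 18S rRNA (20675–32135) than replicates 3 and 4 (6064–12751). Values without SV replicate 3 are given where they change a call. Log2 fold changes inside each replicate set are also given for genes called against ST. Markers of T cells, B cells, natural killer cells, mast cells and neutrophils, which make or read many of these cytokines, gave no call in any comparison. At an unadjusted p under 0.05 by limma, 2 were higher and 0 lower in RT against ST, 1 was higher and 0 lower in SV against ST, and 0 passed in SV against RT. Of these 27 markers, 26 lay below the median signal in every region, and none had a signal of 0. Of 5 general leukocyte markers, 1 (Cd52) was higher in RT and in SV than in ST (at an unadjusted p under 0.05 by limma, 4 and 3 were higher and 0 lower). Of the remaining cell types, 0 of 4 Leydig cell markers were called (1 was higher in SV at an unadjusted p under 0.05 by limma), 2 of 5 muscle markers were lower in RT, 3 of 6 efferent duct markers were higher in RT and 2 in SV, and 1 of 7 germ cell markers was higher and 2 were lower in RT, with 1 higher in SV.

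Most interleukin genes called between RT and ST were higher in RT, as were most called probe sets of the whole array. Between RT and ST, 12 of 72 were higher, against 10.2% of all probe sets, and 2 were lower, against 5.48%. Between SV and ST, 5 were higher (1.50% of all probe sets) and 0 were lower (0.0665%; by limma's unadjusted p under 0.05, 16 interleukin genes were higher and 4 lower). Between SV and RT, 1 was higher in SV (2.95%) and 7 were lower (4.99%). A gene counts here when its limma test has an adjusted p under 0.05, corrected by Benjamini-Hochberg across the array, and a difference over 2-fold. With 1 probe set per gene the background shares were 12.5% and 7.34% in RT against ST, 2.39% and 0.0769% in SV against ST, and 4.39% and 6.41% in SV against RT. RT and SV were both compared with the same 4 ST arrays, so these comparisons are not independent.

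Receptors and ligands were counted apart. In RT against ST, 7 of 33 receptors and 5 of 30 ligands were higher. There 2 receptors and 0 ligands were lower (also 0 ligands at an unadjusted p under 0.05 by limma). The ligand Il1a was called lower in RT in some alternative fits. A limma fit of the RT and ST arrays only gave -1.97 (adjusted p = 0.00498). The median log2 fold change was 0.54 over receptors, 0.07 over ligands and 0.13 over all probe sets. In SV against ST, 3 receptors, 1 ligand and 1 decoy receptor were higher. Medians were 0.22 over receptors and 0.01 over ligands, beside 0.00 over all probe sets and 0.02 with 1 probe set per gene. In SV against RT, 4 receptors and 3 ligands were lower and 1 receptor was higher. Medians were -0.38 over receptors and -0.22 over ligands, beside -0.11 over all probe sets and -0.04 with 1 probe set per gene. No test of receptors against ligands was made. Much of the family was near the lower end of the signal scale: 21 of 30 ligands (70%) and 15 of 33 receptors (45.5%) had a mean below the median of all values, a signal of 87.1, in every region, against 44.7% of all probe sets. Of these 41 dim genes, inhibitors and others included, 1 was called, and of the 31 others 15 were. A gene counted as dim only if it lay below the median in every region, so a gene bright in 1 region left this class. The dim share over the array with 1 probe set per gene was not counted. Il33, Il24, Il20rb, Il18r1 and Il7 were not dim, with mean ST signals of 29.4 to 43.3. The split therefore does not show that dim signal limited the calls.

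**Figure D1:**
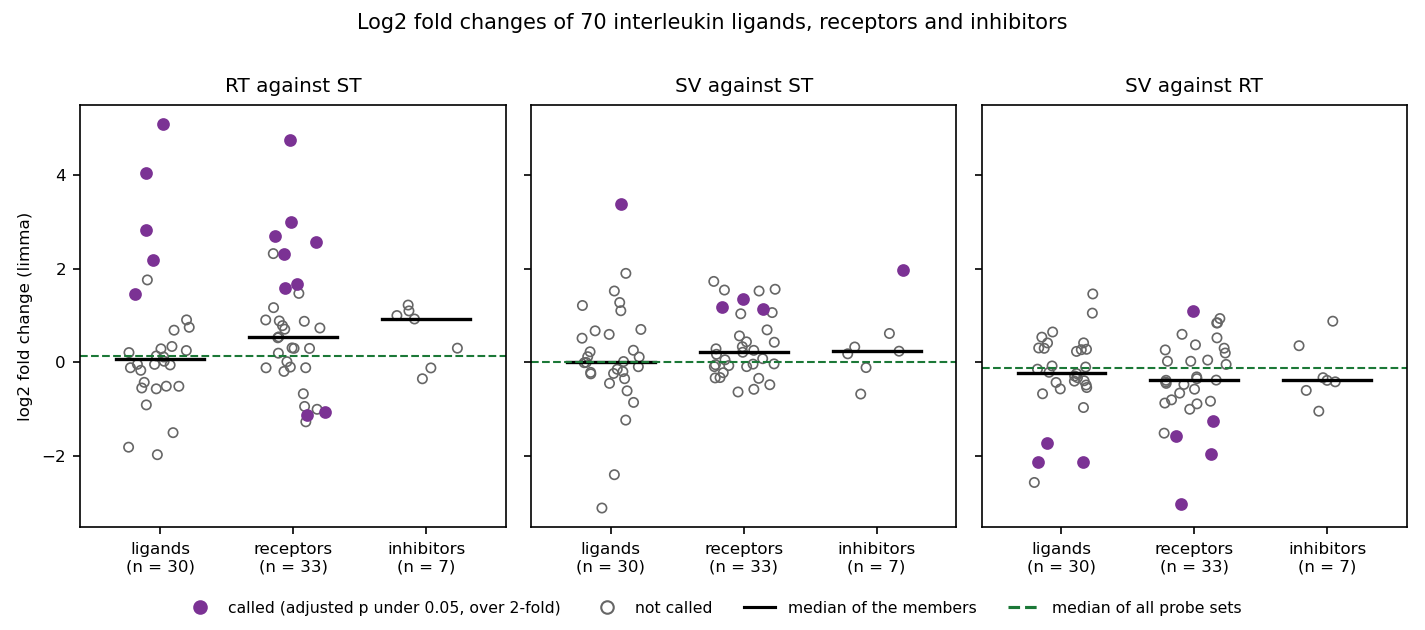
Log2 fold change (y axis) of 30 ligands, 33 receptors and 7 inhibitors (x axis) in RT against ST, SV against ST and SV against RT; filled points are called by limma, solid bars are medians of the role and dashed lines are medians of all probe sets. Called points of RT against ST lie mostly above zero, from 1.45 to 5.08, with 2 receptors at -1.06 and -1.13, and the 7 called lower in SV against RT reach -3.01.

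Il33 (1416200_at) had the largest difference between RT and ST of all 72 genes. It encodes an alarmin of the IL-1 family that is stored in nuclei of epithelial, endothelial and stromal cells and released on damage. Il33 signal was 1389.8, 1103 and 729 in the RT arrays, 591, 359, 142 and 334 in the SV arrays and 31.1, 25.7, 42.4 and 25.9 in the ST arrays. Every RT array was above every SV array, and every SV array was above every ST array. The log2 fold change ± standard error was 5.08 ± 0.40 (adjusted p = 2.15e-06) in RT against ST, which is 33.9-fold, and 3.37 ± 0.37 (adjusted p = 0.000271) in SV against ST. SV was lower than RT, with a log2 fold change of -1.71 ± 0.40 (adjusted p = 0.0118). This call was absent without RT replicate 1 or 2, with log2 fold changes of -1.67 to -1.50 (adjusted p = 0.0551 to 0.0770). With a floor of 32 on the signal RT against ST was 4.92 (adjusted p = 0.000106), and with 32 added 4.09 (adjusted p = 4.00e-06). In replicates 1 and 2 alone Il33 had 5.45 (adjusted p = 7.96e-06) in RT against ST beside 4.03 (adjusted p = 0.000285) in SV against ST. In replicates 3 and 4 alone, with a single RT array, the values were 4.46 (adjusted p = 0.0244) and 2.72 (adjusted p = 0.392). Endothelium markers moved alongside: 4 of 7 were higher in RT and 1 in SV, with summed signals of 4441–5477 in the RT, 1453–3418 in the SV and 842–1336 in the ST arrays, and their part in the result was not tested.

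Il33 has 2 starts in the RefSeq promoter table, far apart on chromosome 19, and one probe set cannot say which is used. Both windows are shown because Il33 separates the 3 regions most. They hold the 250 bases before each start (GRCm38.p6, plus strand), with capitals marking the letters TATAAA on either strand.
Il33 first start, chr19:29924863-29925112: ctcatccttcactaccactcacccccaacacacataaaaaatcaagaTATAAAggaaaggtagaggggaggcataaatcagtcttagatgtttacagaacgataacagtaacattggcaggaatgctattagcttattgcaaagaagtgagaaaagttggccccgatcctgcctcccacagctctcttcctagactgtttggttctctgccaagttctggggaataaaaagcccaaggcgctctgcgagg
Il33 second start, chr19:29945540-29945789: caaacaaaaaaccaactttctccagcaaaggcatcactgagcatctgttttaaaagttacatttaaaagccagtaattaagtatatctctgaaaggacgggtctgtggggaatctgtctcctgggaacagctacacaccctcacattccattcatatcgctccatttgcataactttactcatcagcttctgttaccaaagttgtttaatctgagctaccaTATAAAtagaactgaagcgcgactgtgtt
TATAAA begins 203 bases before the first start and 29 bases before the second; these letters occur in 12.4% of the 32851 promoter windows of this length. Neither Il33 window holds the STAT letters TTCNNNGAA, the AP-1 letters TGANTCA or the NF-kB motif on either strand.

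Il1f6 (1418609_at), the array's older symbol of Il36a, encodes another IL-1 family ligand of epithelium. Its signal was 473, 379.6 and 358 in the RT arrays, 113, 91.1, 63.8 and 112 in the SV arrays and 47.5, 51.5, 80.1 and 53.2 in the ST arrays. RT arrays stood well above all others, and SV overlapped ST. RT against ST gave a log2 fold change of 2.82 ± 0.29 (adjusted p = 1.32e-05), 7.05-fold, and -2.11 ± 0.29 (adjusted p = 0.000478) in SV against RT, while SV against ST gave 0.70 ± 0.26 (adjusted p = 0.242) and no call. Its relatives in the IL-36 group, Il1f8 and Il1f9, had log2 fold changes of 0.34 (adjusted p = 0.798) and -0.51 (adjusted p = 0.367) in RT against ST. The genes lie side by side on chromosome 2 in the order Il1f8, Il1f9, Il1f6, Il1f5, Il1f10 and Il1rn, and the next protein-coding genes are Psd4 and Pax8. Pax8, a transcription factor gene of rete testis epithelium, had 6.79 (adjusted p = 3.85e-07) in RT against ST. Of the 6 IL-1 family genes in this row, Il1f6 alone was called.

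Il24 (1426181_a_at) encodes an epithelial cytokine of the IL-10 family. Il24 signal was 462, 421 and 385 in the RT arrays, 155, 67.6, 56.3 and 144 in the SV arrays and 41.9, 35.7, 30.4 and 9.66 in the ST arrays. The 3 regions did not overlap, and the fourth ST array was the lowest of all. RT exceeded ST by 4.03 ± 0.50 (adjusted p = 6.37e-05) on the log2 scale, 16.4-fold, and SV was lower than RT, with -2.13 ± 0.50 (adjusted p = 0.0127). ST signals were near the bottom of the scale. With a floor of 32 RT against ST was 3.58 (adjusted p = 0.000194), and with 32 added 2.92 (adjusted p = 1.51e-05). The SV against RT call was absent without RT replicate 1 or 2, with log2 fold changes of -2.14 to -2.07 (adjusted p = 0.0529 to 0.0637). SV against ST gave 1.90 ± 0.47 (adjusted p = 0.0547), without a call. It passed with the replicate number as a block, at 1.90 (adjusted p = 0.0241), and without SV replicate 3, at 2.16 (adjusted p = 0.01998). Its neighbours on chromosome 1, Il20 and Il10, had log2 fold changes of 0.02 (adjusted p = 0.976) and 0.12 (adjusted p = 0.921) in RT against ST.

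Il7 (1436861_at), which encodes a stromal survival factor of lymphocytes, had signals of 221, 192 and 167 in the RT arrays, 193, 124, 48.1 and 187 in the SV arrays and 56.1, 37.1, 49.5 and 30.5 in the ST arrays. RT lay above ST in every array, SV replicates 1 and 4 lay within RT, and SV replicate 3 lay within ST. RT exceeded ST by 2.19 ± 0.44 (adjusted p = 0.00225) on the log2 scale, or by 1.59 (adjusted p = 0.00236) with 32 added to the signal. SV against ST gave 1.52 ± 0.41 (adjusted p = 0.0787), which passed with the replicate block, at 1.52 (adjusted p = 0.0304), and without SV replicate 3, at 1.97 (adjusted p = 0.00206). Il16 (1417391_a_at) encodes a chemoattractant of lymphocytes cut from a larger PDZ protein. Its signals of 140.3, 118 and 131 in the RT arrays, 185, 117, 50.6 and 132 in the SV arrays and 51.7, 21.3, 57.9 and 78.2 in the ST arrays put RT above ST without overlap and leave SV spread over both. In RT against ST it gave 1.45 ± 0.48 (adjusted p = 0.0408). That call held in only 3 of 11 fits that leave out 1 array (those without ST replicate 4 or SV replicate 1 or 3), and the other 8 gave log2 fold changes of 1.07 to 1.55 (adjusted p = 0.0513 to 0.121). Without SV replicate 3, SV against ST was called as well, at 1.59 (adjusted p = 0.0377). The other 3 Il16 probe sets gave no call. Il15, a survival factor of natural killer cells, had 0.91 ± 0.25 (adjusted p = 0.0146) in RT against ST, under 2-fold. It was past 2-fold without RT replicate 1, at 1.04 (adjusted p = 0.0216). With arrays centred on their medians it had 0.48 (adjusted p = 0.179).

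Among receptors, Il20rb (1437876_at) showed the largest difference. It encodes the beta chain of receptors for IL-19, IL-20 and IL-24. Il20rb signal was 590.2, 465 and 506 in the RT arrays, 108, 17.7, 74.3 and 119 in the SV arrays and 5.21, 48.8, 57.4 and 9.58 in the ST arrays. All RT arrays were above the others, and SV and ST overlapped with a wide spread. RT exceeded ST by 4.74 ± 0.82 (adjusted p = 0.000790) on the log2 scale, 26.8-fold, and SV against RT gave -3.01 ± 0.82 (adjusted p = 0.0268). ST signals were low here too. With a floor of 32 the RT against ST value was 3.65 (adjusted p = 0.000471), and with 32 added 3.25 (adjusted p = 6.08e-05). Without any 1 of the 3 RT arrays or SV replicate 2, SV against RT lost its call, with log2 fold changes of -3.09 to -2.40 (adjusted p = 0.0609 to 0.104). SV against ST gave 1.73 ± 0.76 (adjusted p = 0.346). Of the partner chains, Il20ra had 0.20 (adjusted p = 0.901) and Il22ra1, which pairs with Il20rb for IL-24, had 2.32 (adjusted p = 0.115) in RT against ST.

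Il18r1 (1421628_at) encodes the binding chain of the IL-18 receptor. Its signal was 207, 315 and 228 in the RT arrays, 83.0, 46.8, 45.9 and 92.4 in the SV arrays and 29.6, 29.2, 35.4 and 30.4 in the ST arrays. The regions did not overlap, and 2 of the SV arrays were close to ST. RT exceeded ST by 2.99 ± 0.34 (adjusted p = 3.36e-05) on the log2 scale, SV against RT was -1.95 ± 0.34 (adjusted p = 0.00223), and SV against ST gave 1.04 ± 0.32 (adjusted p = 0.130). With 32 added to the signal RT against ST was 2.14 (adjusted p = 2.35e-05). Its chromosome 1 neighbours lie in the order Il1r2, Il1r1, Il1rl2, Il1rl1 (not analysed here), Il18r1 and Il18rap. The accessory chain gene Il18rap next to it had 0.53 (adjusted p = 0.696) in RT against ST, and Il1rl2, which encodes the IL-36 receptor, had 0.54 (adjusted p = 0.309). With the replicate block Il1rl2 was lower in SV than in RT, at -1.02 (adjusted p = 0.0389).

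The promoter windows of Il18r1 and Il1r2 are shown because these members of one receptor row were called in different comparisons, Il18r1 in RT against ST and Il1r2 in SV against ST, and both hold STAT letters. Il18r1 has 3 listed starts, and the third is the only one with a match. Capitals mark TTCNNNGAA, a palindrome that reads the same on both strands (GRCm38.p6, plus strand).
Il18r1 start 3, chr1:40465756-40466005: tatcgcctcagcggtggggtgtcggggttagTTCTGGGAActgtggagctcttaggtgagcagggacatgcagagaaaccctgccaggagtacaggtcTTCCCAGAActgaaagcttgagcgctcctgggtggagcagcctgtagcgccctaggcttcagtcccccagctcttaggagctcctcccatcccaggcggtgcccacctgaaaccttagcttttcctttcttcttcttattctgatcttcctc
Il1r2, chr1:40085843-40086092: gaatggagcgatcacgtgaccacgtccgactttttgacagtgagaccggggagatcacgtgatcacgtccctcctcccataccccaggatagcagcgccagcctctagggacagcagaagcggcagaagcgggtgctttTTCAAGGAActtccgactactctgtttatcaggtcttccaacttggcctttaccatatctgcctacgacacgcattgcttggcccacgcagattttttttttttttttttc
The matches begin 219 and 152 bases before the Il18r1 start and 111 bases before that of Il1r2. TTCNNNGAA occurs in 7.02% of all 32851 windows, in 8 of 70 windows of the interleukin genes and in 3 of 18 windows of those called, the third being Il12rb2. The AP-1 letters TGANTCA occur in 6.75% of all windows, in 14 of 70 and in 2 of 18 (Il16 and Il17rb). NF-kB motifs occur in 7.25% of all windows, in 5 of 70 and in 2 of 18 (Il1r1 and Il16). Several windows of a gene can overlap and were counted separately, and 57 of the 72 genes, 12 of the 16 called, have a window in the table.

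Of the IL-17 receptor family, 3 of 5 measured chains were higher in RT than in ST. Over the array 10.2% of all probe sets were, or 12.5% with 1 probe set per gene. Il17rd (1429893_at), also known as Sef and an inhibitor of FGF signalling, had signals of 631, 501 and 476 in the RT arrays, 193, 169.7, 116 and 277 in the SV arrays and 64.4, 71.6, 96.3 and 99.8 in the ST arrays. The regions formed a descending order from RT to SV to ST with no overlap. RT exceeded ST by 2.71 ± 0.28 (adjusted p = 1.71e-05) on the log2 scale, and SV lay 1.14 ± 0.26 (adjusted p = 0.0394) above ST. SV against RT gave -1.56 ± 0.28 (adjusted p = 0.00271). The SV against ST call held in 1 of 11 fits that leave out 1 array, the fit without SV replicate 3, at 1.35 (adjusted p = 0.00562), and the other 10 gave log2 fold changes of 0.94 to 1.24 (adjusted p = 0.0520 to 0.129). Its second probe set, 1452471_at, had 0.12 (adjusted p = 0.846) in RT against ST.

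Il17rc (1419671_a_at), which encodes the partner chain for IL-17A and IL-17F, gave 566, 589.7 and 684 in the RT arrays, 322, 249.96, 161 and 332 in the SV arrays and 59.4, 136, 247 and 113 in the ST arrays. RT was above all other arrays, and one ST array lay within SV. RT exceeded ST by 2.32 ± 0.39 (adjusted p = 0.000596) on the log2 scale. Il17rc has 2 probe sets, and their calls over the comparisons were not the same. SV against RT gave -1.26 ± 0.39 (adjusted p = 0.0467), a call that held without ST replicate 1 or ST replicate 3 only; the other 9 fits gave log2 fold changes of -1.38 to -1.03 (adjusted p = 0.0516 to 0.124). SV against ST gave 1.06 ± 0.36 (adjusted p = 0.179) and was called without ST replicate 3, with a log2 fold change of 1.40 (adjusted p = 0.0452). The adjacent gene on chromosome 6, Il17re, the receptor gene of IL-17C, had 0.02 ± 0.19 (adjusted p = 0.967) in RT against ST.

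Il17rb (1420678_a_at), the receptor gene of IL-25, gave 1044, 1125 and 1377 in the RT arrays, 1112, 1107, 563 and 1165 in the SV arrays and 391, 475, 301 and 331 in the ST arrays. Of the SV arrays, 3 lay within the range of RT and SV replicate 3 lay below it, and all RT and SV arrays were above every ST array. The log2 fold change was 1.67 ± 0.25 (adjusted p = 0.000225) in RT against ST beside 1.36 ± 0.23 (adjusted p = 0.00611) in SV against ST, with -0.31 ± 0.25 (adjusted p = 0.484) between SV and RT. Both calls against ST held in each of 11 fits that leave out 1 array. Il17ra, the shared chain, had signals of 497, 482 and 714 in the RT arrays, 851, 886, 1165 and 1113 in the SV arrays and 867, 662, 1065 and 988 in the ST arrays. RT was below every SV array, and the third RT array lay within ST. The log2 fold changes were -0.67 ± 0.20 (adjusted p = 0.0237) in RT against ST, with 0.84 ± 0.20 (adjusted p = 0.0122) in SV against RT, both under 2-fold. The IL-17 ligands Il17a, Il17b, Il17d and Il25 had log2 fold changes of -1.50 to 0.14 in RT against ST, and none was called.

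Il13ra1 (1454783_at), the signalling chain of the IL-13 receptor, is the brightest probe set of 5 for this gene. Signals were 1319, 1114 and 1227 in the RT arrays, 841, 635, 433 and 820.0 in the SV arrays and 427, 427, 375 and 404 in the ST arrays. RT was above SV, and SV was above ST. In RT against ST it gave 1.58 ± 0.20 (adjusted p = 7.74e-05). SV against RT gave -0.88 ± 0.20 (adjusted p = 0.0106), just under 2-fold, and was called without SV replicate 1, with a log2 fold change of -1.0 (adjusted p = 0.00649). Of the other 4 probe sets, 2 were called higher in RT as well, at 1.49 (adjusted p = 3.32e-05) and 1.30 (adjusted p = 0.00867). Il12rb2 (1421623_at), a chain of the IL-12 receptor, was the called gene with the dimmest signals, 57.5, 53.4 and 59.0 in the RT arrays, 55.7, 8.02, 39.0 and 36.9 in the SV arrays and 4.97, 30.9, 3.33 and 16.6 in the ST arrays. RT arrays were alike, while SV and ST varied widely. Its 2.56 ± 0.83 (adjusted p = 0.0367) in RT against ST held in 6 of 11 fits that leave out 1 array, and without any RT array, ST replicate 1 or ST replicate 3 it had log2 fold changes of 2.05 to 2.601 (adjusted p = 0.0875 to 0.0999). With 32 added to the signal it was 0.99 (adjusted p = 0.0153), and with a floor of 32 it was 0.82 (adjusted p = 0.00431), both under 2-fold.

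**Figure D2:**
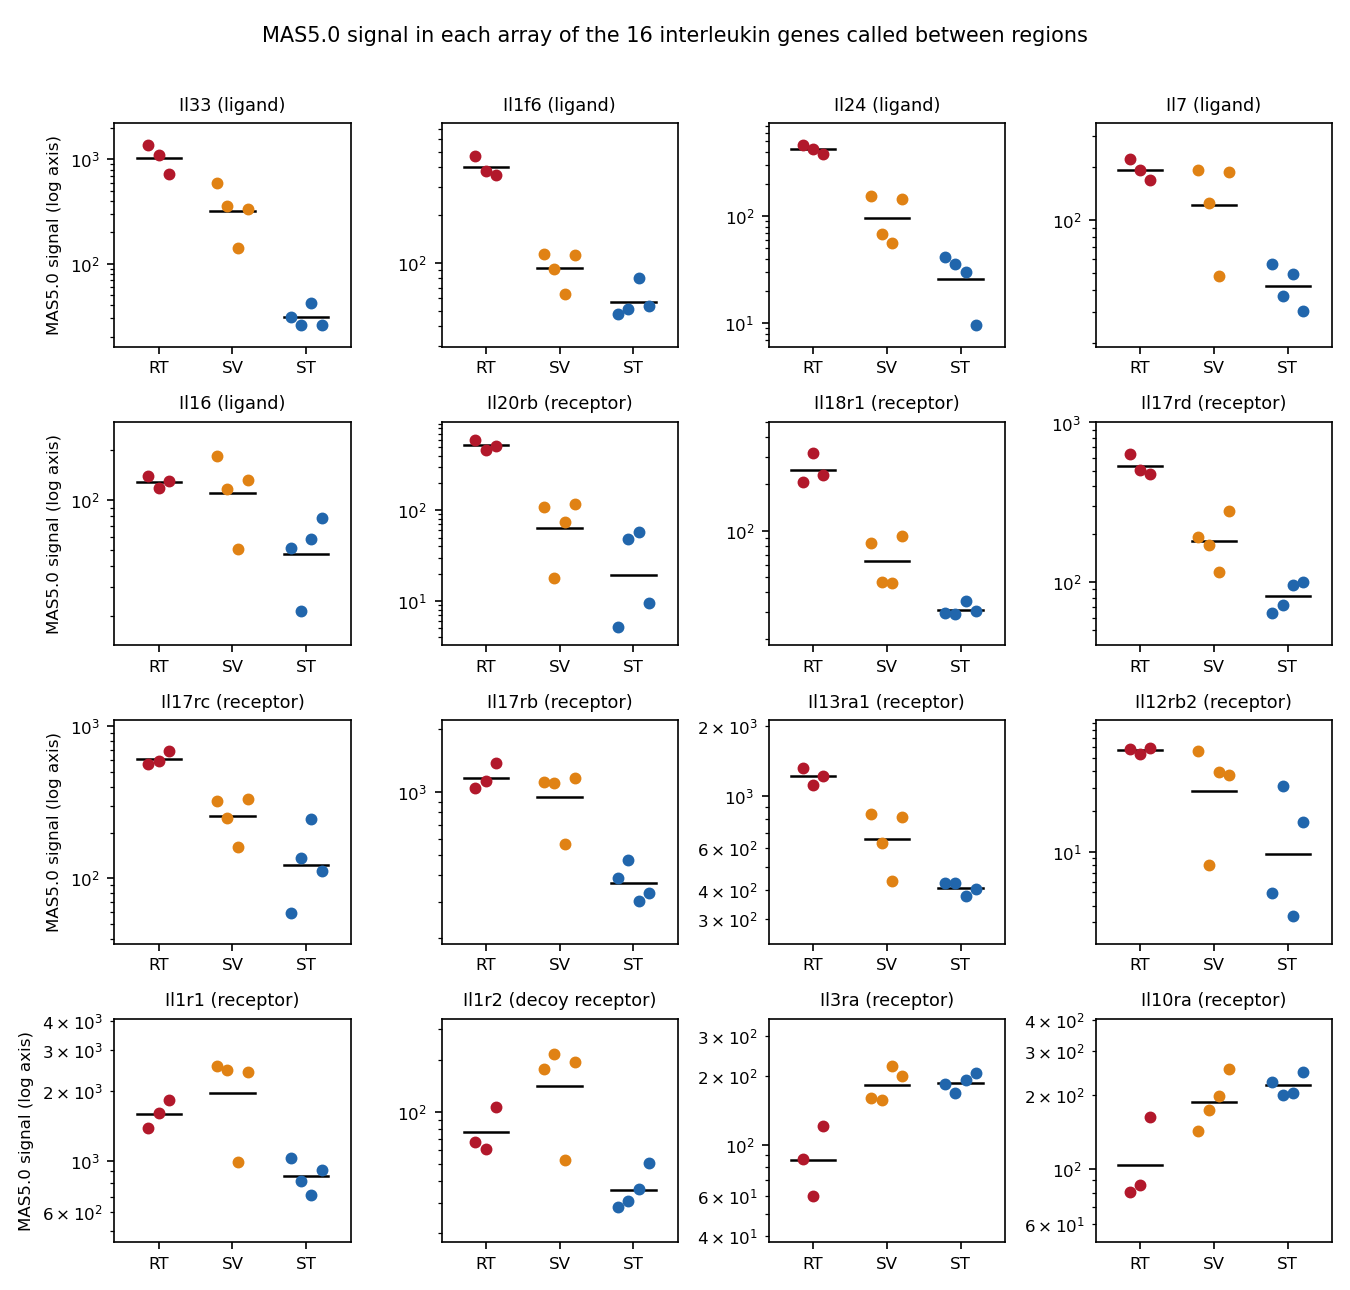
MAS5.0 signal (y axis, log scale, a range of its own in each panel) of single arrays by region (x axis) for the 16 interleukin genes called in any comparison; points are arrays in replicate order and bars are means of log2 signal. In Il33, Il24, Il18r1, Il17rd and Il13ra1 the 3 regions do not overlap, in Il1r1 and Il1r2 the SV arrays other than replicate 3 are the highest, and in Il3ra every RT array is below the others.

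The 2 genes called lower in RT than in ST were both receptor chains. Il3ra (1419712_at), the alpha chain of the IL-3 receptor, gave 87.2, 59.98 and 121 in the RT arrays, 161, 157, 223 and 199.95 in the SV arrays and 185, 168, 192 and 206 in the ST arrays. RT was below every SV and ST array, and SV overlapped ST. The log2 fold change was -1.13 ± 0.26 (adjusted p = 0.00517) in RT against ST, and SV exceeded RT by 1.10 ± 0.26 (adjusted p = 0.0119), so Il3ra was the interleukin gene called higher in SV than in RT. Without RT replicate 2 neither call held, with -0.87 (adjusted p = 0.0305) and 0.84 (adjusted p = 0.0667). Il10ra (1448731_at), the binding chain of the IL-10 receptor, gave 81.0, 86.4 and 162 in the RT arrays, 142, 173, 198 and 253 in the SV arrays and 225, 199, 204 and 247 in the ST arrays. RT was below every ST array, and the third RT array lay within SV. RT against ST gave -1.06 ± 0.28 (adjusted p = 0.0115). This call was absent with the replicate block, at -0.96 (adjusted p = 0.00658), and without RT replicate 1 or 2, with log2 fold changes of -0.93 to -0.88 (adjusted p = 0.0582 to 0.0659). Without RT replicate 3, Il10ra was called higher in SV than in RT, with a log2 fold change of 1.16 (adjusted p = 0.0104). Il10ra has 3 probe sets, and their calls over the comparisons were not the same. Il10rb, the shared chain of IL-10 and IL-22 receptors, had 1752, 1777 and 1947 in the RT arrays, 2953, 3019.8, 2542 and 2569 in the SV arrays and 3870.4, 3755, 3061 and 3354 in the ST arrays. The 3 regions rose from RT to SV to ST without overlap, and the differences, -0.94 ± 0.12 (adjusted p = 9.29e-05) in RT against ST, with 0.60 ± 0.12 (adjusted p = 0.00569) in SV against RT, were under 2-fold. With each array centred on its median, which moves the median of all probe sets in RT against ST from 0.13 to -0.29, Il10rb and Il17ra were called lower in RT, at -1.36 (adjusted p = 7.30e-05) and -1.09 (adjusted p = 0.000714), and SV then exceeded RT with a call in Il10ra and Il17ra. Leukocyte markers were read beside these chains. The 5 general leukocyte markers had summed signals of 2923–4299 in the RT, 2372–3991 in the SV and 1865–2407 in the ST arrays. Of 12 macrophage markers 1 was higher in RT (Cd163) and 1 lower (Vsig4), with summed signals of 19999–26212 in the RT, 18653–25846 in the SV and 16999–20241 in the ST arrays. Of 7 dendritic cell and MHC class II markers 4 were higher in RT and 1 was lower (Itgax), with sums of 11028–15535, 5518–10929 and 3006–4339.5. Their part in the interleukin results was not tested.

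The genes of the IL-1 receptor pair were called in SV against ST and not in SV against RT. Il1r1 (1448950_at), the signalling receptor of IL-1, gave 1374, 1598 and 1826 in the RT arrays, 2541, 2452, 985 and 2408 in the SV arrays and 1030.2, 818, 712 and 913 in the ST arrays. Of the SV arrays, 3 were above every RT array and SV replicate 3 lay within ST. SV exceeded ST by 1.19 ± 0.26 (adjusted p = 0.0310) on the log2 scale, beside 0.88 ± 0.28 (adjusted p = 0.0337) in RT against ST, the latter under 2-fold. SV against RT gave 0.30 ± 0.28 (adjusted p = 0.558). Without SV replicate 3 SV against ST was 1.52 (adjusted p = 7.57e-05). The call held also without RT replicate 1 or RT replicate 3. The other 8 fits that leave out 1 array gave log2 fold changes of 1.06 to 1.28 (adjusted p = 0.0523 to 0.120). Il1r1 has 2 probe sets, and their calls over the comparisons were not the same.

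Il1r2 (1419532_at), the decoy receptor that binds IL-1 without signalling and the gene next to Il1r1, gave 67.1, 61.4 and 107 in the RT arrays, 177, 214, 52.7 and 193 in the SV arrays and 28.4, 30.8, 36.0 and 50.7 in the ST arrays. The same 3 SV arrays were above every RT array, SV replicate 3 was below them all, and RT was above ST. SV against ST was 1.98 ± 0.44 (adjusted p = 0.0326), and SV against RT gave 0.88 ± 0.47 (adjusted p = 0.269), without a call. Without SV replicate 3 SV against ST was 2.45 (adjusted p = 0.000918), and Il1r2 was then also called in RT against ST, with a log2 fold change of 1.10 (adjusted p = 0.0250), and in SV against RT, with a log2 fold change of 1.35 (adjusted p = 0.0270). The SV against ST call held without SV replicate 3, RT replicate 3 or ST replicate 4, and the other 8 fits gave log2 fold changes of 1.77 to 1.98 (adjusted p = 0.0501 to 0.125). In replicates 1 and 2 alone SV against ST was 1.44 (adjusted p = 0.00144) for Il1r1 and 2.72 (adjusted p = 0.00547) for Il1r2, and in replicates 3 and 4 alone 0.93 (adjusted p = 0.878) and 1.24 (adjusted p = 0.930). SV against RT was 0.75 (adjusted p = 0.0110) for Il1r1 and 1.602 (adjusted p = 0.0237) for Il1r2 in replicates 1 and 2, and in replicates 3 and 4 it had the other sign, -0.25 (adjusted p = 0.864) and -0.09 (adjusted p = 0.972).

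Within each set of replicates, the 14 genes called in RT against ST had the same direction as over all arrays. They were chosen from these same arrays, and replicates 1 and 2 hold most of the RT arrays. The agreement was thus partly set by the choice and is no independent replication. Of these genes 13 were called in replicates 1 and 2, and 2 (Il33 and Il17rb) in replicates 3 and 4, which have a single RT array, and the difference was smaller in replicates 3 and 4 for 10 of 14. The 4 genes that were smaller by the widest ratio were Il10ra, with -1.34 (adjusted p = 0.00511) in replicates 1 and 2 and -0.47 (adjusted p = 0.476) in replicates 3 and 4, Il16, with 1.95 (adjusted p = 0.0158) and 0.96 (adjusted p = 0.481), Il3ra, with -1.29 (adjusted p = 0.0114) and -0.72 (adjusted p = 0.247), and Il17rd, with 3.05 (adjusted p = 2.99e-05) and 2.28 (adjusted p = 0.0710). Log2 fold changes of the others were 2.16 and 2.99 for Il12rb2, 1.50 and 1.66 for Il13ra1, 1.33 and 2.12 for Il17rb, 2.68 and 2.04 for Il17rc and 3.12 and 2.80 for Il18r1. For the ligands and Il20rb they were 3.10 and 2.45 for Il1f6, 2.18 and 2.11 for Il7, 3.51 and 4.49 for Il24 and 5.04 and 4.43 for Il20rb, the first value in replicates 1 and 2. In SV against ST, Il17rd had 1.41 (adjusted p = 0.0113) in replicates 1 and 2 and 0.87 (adjusted p = 0.915) in replicates 3 and 4, Il17rb had 1.36 (adjusted p = 0.00164) and 1.36 (adjusted p = 0.580), and Il17rc, not called over all arrays, had 1.66 (adjusted p = 0.0308) and 0.47 (adjusted p = 0.957).

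The 5 interleukin genes called in SV against ST were placed along the way from ST to RT. On the linear scale, the SV mean of Il17rd stood at 23.4% of the way from the ST mean to the RT mean, with single SV arrays at 7.38 to 42.8%. The same figure was 31.2% for Il33 (10.7 to 53.7%) and 75.8% for Il17rb (23.3 to 97.9%). Il1r1 stood at 168% (16 to 229%) and Il1r2 at 291% (38.5 to 422%), with SV replicate 3 at the low end of both. For the 7 rete testis markers the SV means stood at 5.40 to 21.2%, with a median of 18.6%. Single SV arrays of these markers ranged from 0.404% (Krt7) to 33.6% (Pax8). Of the 12 genes higher in RT than in ST, 4 had a mean within the range of marker means and 8 a mean above it. Il1f6 (10.7%), Il20rb (10.1%), Il18r1 (16.4%) and Il24 (19.4%) lay within it. Il17rc (26.8%), Il13ra1 (33.7%) and Il12rb2 (49.1%) lay above it in the mean, as did Il17rd, Il33 and Il17rb. Single SV arrays were at 4.62 to 40.7% for Il17rc, 3.02 to 53.3% for Il13ra1 and -13.9 to 97.9% for Il12rb2. Il7 (62.9%) and Il16 (89.0%) were also above it in the mean, while their values in SV replicate 3 were 3.20% and -2.11%. This measure was chosen after values were seen and was given no test, and the part of RT cells in the SV results was not tested.

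**Figure D3:**
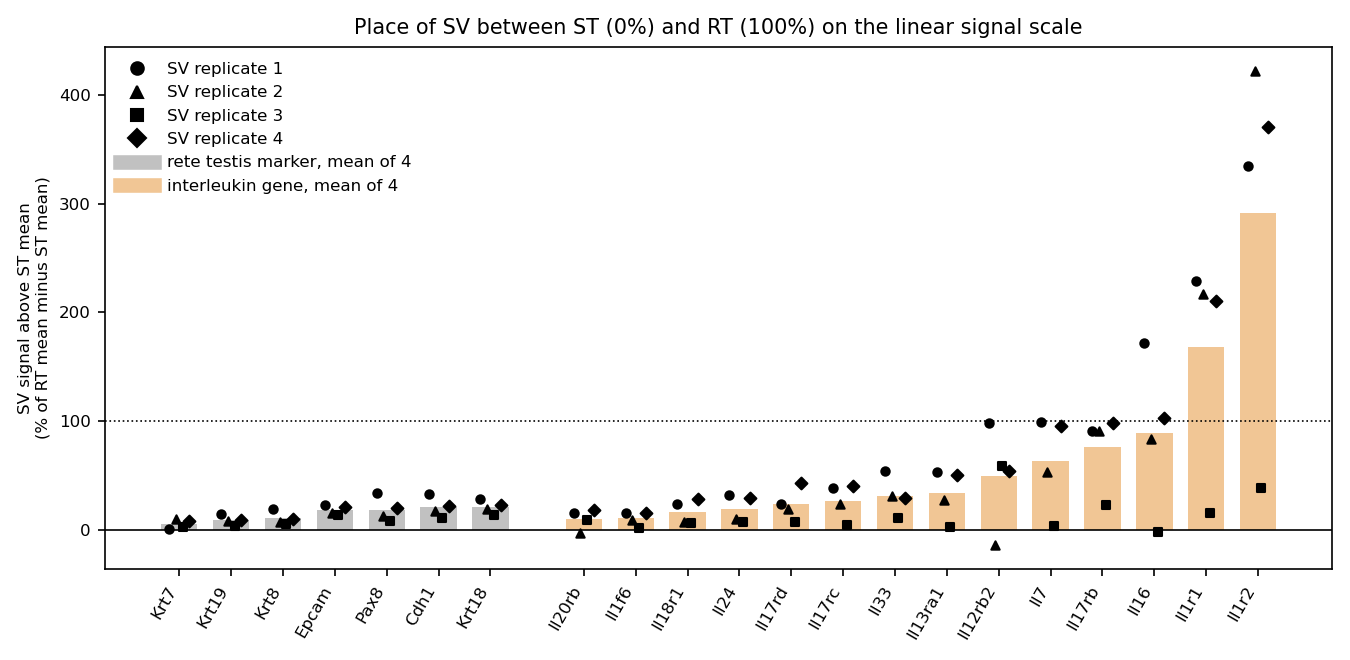
Signal of each SV array above the ST mean, as a percentage of the difference between RT and ST means (y axis), for 7 rete testis markers and 14 interleukin genes (x axis); bars are means of 4 SV arrays, with 0% at ST and 100% (dotted) at RT. Rete markers average 5.40 to 21.2%, Il17rb 75.8% and Il1r1 168%, and SV replicate 3 (squares) is the lowest SV array for most of the interleukin genes drawn.

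Ligands and receptor chains of a system were set side by side, with no test between them. Il24 and its receptor chain gene Il20rb were both higher in RT than in ST and both lower in SV than in RT. Il33 and Il1f6 were higher in RT, and Il1rap, the accessory chain of their receptors, had -0.10 ± 0.21 (adjusted p = 0.797) in RT against ST beside -0.05 (adjusted p = 0.960) in SV against ST. Its signals, 207, 194 and 189 in the RT arrays, 212, 242, 179.6 and 187 in the SV arrays and 205, 289, 198 and 167 in the ST arrays, overlapped. A dim second probe set of Il1rap, 1439697_at, was called lower in RT, at -2.19 (adjusted p = 0.0339). The IL-33 receptor gene Il1rl1 was not analysed here. Il18 itself, an inflammasome-processed cytokine, had 0.21 (adjusted p = 0.498) in RT against ST beside 0.00 (adjusted p = 1) in SV against ST, and the former was -0.21 (adjusted p = 0.563) with arrays centred on their medians. Il18bp, its secreted decoy, had 0.93 (adjusted p = 0.0613) in RT against ST and passed with the replicate block, at 1.08 (adjusted p = 0.0198).

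Of the IL-1 ligands, Il1b had -0.05 (adjusted p = 0.925) in RT against ST beside 0.23 (adjusted p = 0.817) in SV against ST. Il1a gave signals of 16.9, 39.2 and 42.9 in the RT arrays, 1.05, 64.2, 70.1 and 56.1 in the SV arrays and 119, 135, 97.9 and 129.6 in the ST arrays. ST was above every RT and SV array, and SV replicate 1 was far below the rest. The log2 fold changes of -1.97 ± 1.15 (adjusted p = 0.257) in RT against ST beside -2.39 ± 1.07 (adjusted p = 0.352) in SV against ST had wide errors and gave no call. With a floor of 32 on the signal RT against ST was called, at -1.66 (adjusted p = 0.00179), as it was with 32 added to the signal, at -1.25 (adjusted p = 0.0178), and without SV replicate 1 (adjusted p = 0.00203). Il1rn, the secreted antagonist, had 0.30 (adjusted p = 0.651) in RT against ST.

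Il6st (1452843_at), the chain through which the IL-6 family reaches STAT3, gave 2247, 2383 and 2814 in the RT arrays, 1663, 1978, 1668 and 2123 in the SV arrays and 1446, 1356, 1665 and 1595 in the ST arrays. RT was above ST in every array, with 0.71 ± 0.14 (adjusted p = 0.00159), under 2-fold. With arrays centred on their medians this difference was 0.29 (adjusted p = 0.175). Another of its 4 probe sets, 1437303_at, was called at 2.13 (adjusted p = 0.00383). Il6ra, the binding chain of IL-6, had -0.11 (adjusted p = 0.795) in RT against ST beside -0.09 (adjusted p = 0.930) in SV against ST. Il6 was dim in all regions, with signals of 7.75, 12 and 24.4 in the RT arrays, 1.96, 0.596, 1.56 and 13.5 in the SV arrays and 26.8, 13.5, 27.9 and 13.4 in the ST arrays. Of the SV arrays, 3 were below all others. SV against ST gave -3.11 ± 0.87 (adjusted p = 0.0950) and SV against RT -2.56 ± 0.94 (adjusted p = 0.0933). Without SV replicate 4 both were called, at -3.97 (adjusted p = 0.0203) and -3.43 (adjusted p = 0.0137), and SV against RT was called with the replicate block, at -2.91 (adjusted p = 0.0458). Every Il6 signal was under 32, so that a floor of 32 left no difference, and with 32 added SV against ST was -0.53 (adjusted p = 0.141) and SV against RT -0.36 (adjusted p = 0.214). Il7r, the receptor gene of IL-7, had 0.88 (adjusted p = 0.231) in RT against ST, and its dimmer probe set 1448576_at had 3.35 (adjusted p = 0.0299), a call. Il11ra1 and Il11ra2 were not analysed here.

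**Figure D4:**
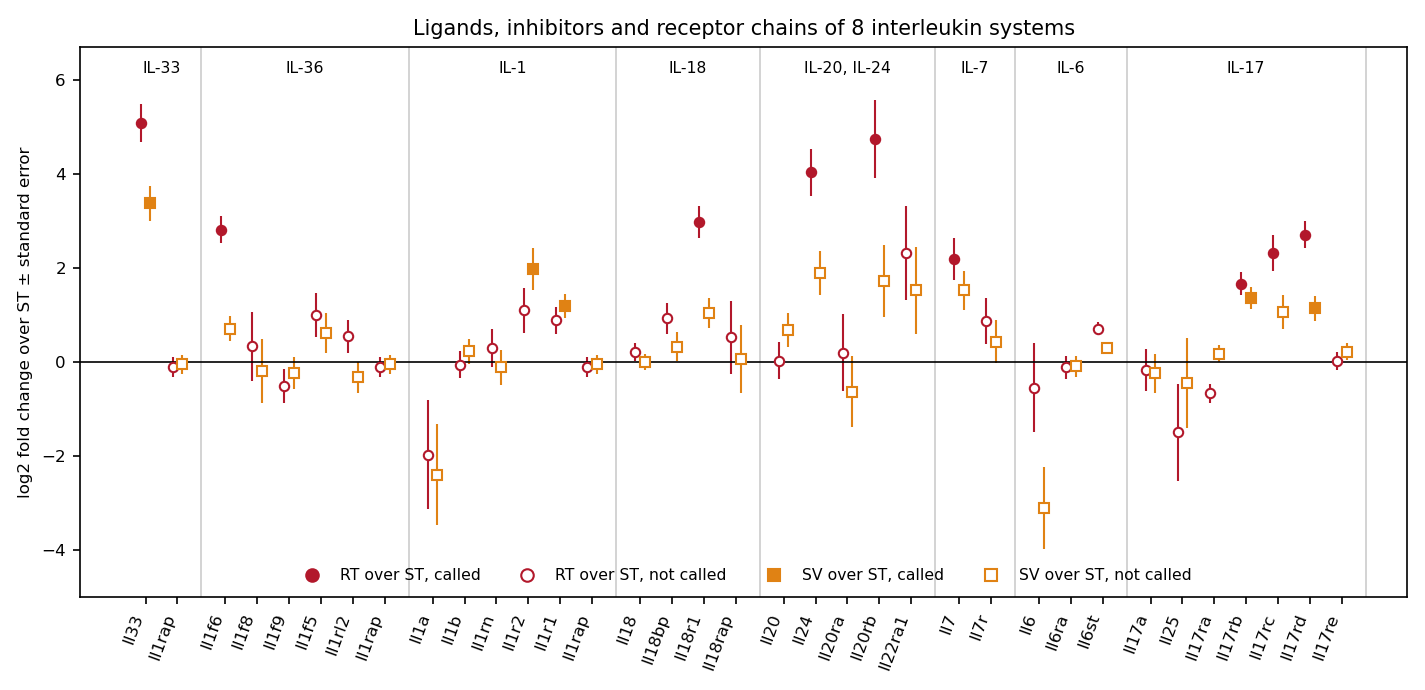
Log2 fold change over ST with its limma standard error (y axis) in RT (circles) and SV (squares) for the ligands, inhibitors and receptor chains of 8 interleukin systems (x axis); filled symbols are called and Il1rap, 1 probe set, is drawn in 3 systems. In RT, Il33, Il1f6 and Il7 are called and Il1rap, Il1rl2 and Il7r are not, Il24 and Il20rb are both called, and Il18r1 is called and Il18 is not.

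Signalling genes outside the Il names were read from lists. The 20 JAK, STAT and SOCS genes measured had a median log2 fold change of 0.36 in RT against ST. It was 0.13 over all probe sets and 0.075 with 1 probe set per gene. Of the 20 genes, 5 were higher in RT and 0 lower (9 and 2 at an unadjusted p under 0.05 by limma), against 10.2% and 5.48% of all probe sets. They are Socs2 (1.99 (adjusted p = 5.76e-06)), Socs5 (1.42 (adjusted p = 6.49e-05)) and Socs3 (1.16 (adjusted p = 0.0146)), which encode feedback inhibitors of cytokine receptors, and Stat5a (1.76 (adjusted p = 0.000192)) and Stat5b (1.11 (adjusted p = 0.000489)), which encode factors downstream of gamma chain cytokines. In SV against ST 2 were higher, Socs3 (1.53 (adjusted p = 0.0138)) and Jak3 (1.12 (adjusted p = 0.0208)), the kinase gene of the common gamma chain. Socs2 was the single gene of this list lower in SV than in RT.

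Of 19 genes of IL-1 receptor signalling, 3 were higher in RT and 1 was lower, shares near the 10.2% and 5.48% of all probe sets, with a median of 0.11, and 0 were called in SV against ST (at an unadjusted p under 0.05 by limma, 1 gene was higher and 1 lower). Irak1, a kinase of the receptor complex, had 1.43 (adjusted p = 0.000767) in RT against ST, and Traf3ip2, the IL-17 receptor adaptor, had 1.34 (adjusted p = 0.000684). Sigirr, an inhibitory receptor of the IL-1 family, had 2.25 (adjusted p = 0.0191), and Tollip, an inhibitor of Irak1, was lower at -1.12 (adjusted p = 0.000127). Of 14 genes for cytokines and receptors related to gp130 without an Il name, 4 were higher in RT and 0 lower (6 and 1 at an unadjusted p under 0.05 by limma), beside the same shares of all probe sets. They are Ctf1, which encodes cardiotrophin 1 (2.37 (adjusted p = 5.33e-05)), the oncostatin M receptor gene Osmr (1.35 (adjusted p = 0.000450)), Cntfr (1.22 (adjusted p = 0.00921)) and Ebi3 (1.19 (adjusted p = 0.0335)). Osmr alone of this list was higher in SV than in ST, at 1.33 (adjusted p = 0.00285), with -0.02 (adjusted p = 0.972) between SV and RT.

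The other 56 interleukin genes were called in no comparison, and 40 of them were dim in every region. These include the T cell cytokine genes Il2, Il3, Il4, Il5, Il9, Il13, Il17a, Il21 and Il31, whose log2 fold changes in RT against ST were -1.81 to 1.76. By family, calls in RT against ST were 3 of 20 for the IL-1 family, 3 of 9 for the IL-17 family, 3 of 9 for the IL-10 family, 2 of 17 for the common gamma chain group, 1 of 12 for the IL-6 and IL-12 families and 1 of 4 for the common beta chain group, in either direction, and Il16 alone in a group of its own. The gamma chain group as counted here also holds Il4i1 and the IL-13 genes, and its 2 calls were Il7 and Il13ra1. Over all probe sets 15.7% were called in either direction, and with 1 probe set per gene 19.8%. The counts of the IL-1 family, this gamma chain group and the IL-6 and IL-12 families lie below both shares. Of the 27 genes with more than 1 probe set, 18 had the same calls on all and 9 did not (Il10ra, Il13ra1, Il16, Il17rc, Il17rd, Il1r1, Il1rap, Il6st and Il7r). An F-test over the 3 regions passed an adjusted p of 0.05 for 19 of 72 interleukin genes (26.4%), 12 of them receptors and 6 ligands. Over all probe sets 21.3% passed, and the share with 1 probe set per gene was not counted. Il12rb2 and Il16, each called in RT against ST, did not pass this test (F-test adjusted p = 0.0935 and 0.0702).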

How the data were processed

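Arrays were Affymetrix Mouse Genome 430 2.0. The authors used an RNeasy Micro Kit for extraction and a GeneChip 3′ IVT Plus kit for labelling, and deposited MAS5.0 signals, linear intensity values of 45101 probe sets that were scaled by array before deposit (median 65.8–110.4 per array, range 0.0451–42175). No pseudocount or filter was used. The number of arrays limits the precision.

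Log2 signals of all 11 arrays entered one limma 3.58.1 fit in R 4.3.3 (lmFit, then eBayes with a trend), and p-values were adjusted by Benjamini-Hochberg across the whole array. Calls needed an adjusted p below 0.05 together with a difference above 2-fold. The labels call replicates biological. Their numbers were checked as pairs: over probe sets not dim in every region, deviations from the region means correlated at 0.22 to 0.57 for all 10 same-number pairs of different regions and at -0.50 to 0.40 for the 30 others (over all probe sets, 0.07 to 0.19 and -0.18 to 0.18). Only the former are all over 0.1, and on that basis the numbers were used as a block in an alternative fit. Over all probe sets, other-number pairs within replicates 1 and 2 or within 3 and 4 were positive too. RT 3 had 0.178 with SV 4 and 0.148 with SV 3. Pairs across these sets were all negative. The check therefore cannot tell pairing by number from a difference between the sets. The main fit has no block, and blocked values stand beside results where they change a call.

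Every called interleukin gene and a short list of IL-1, IL-6 and gamma chain genes were named. Members and lists were chosen with earlier results of these data known. Alternatives tried were other tests, scalings, low-signal treatments, replicate blocks, each set of replicates, other probe set rules and leaving out each array. The fit was tested on simulated data. Promoters and gene order are from RefSeq (GRCm38.p6). Figures used Python 3.11.15 and matplotlib 3.10.9.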

Additional observations from a re-analysis of the deposited data

Results flagged for a closer look

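In 5 of the 48 groups of 4 arrays tested over the 24 named genes, 1 array stood apart from the other 3 by more than Dixon's 95% critical value, where chance gives about 1 in 20. In 4 of them it was SV replicate 3, which was the lowest SV array. The gap divided by the range of log2 signal was 0.863 for Il15, with 101 in SV replicate 3 against 149 to 159 in the other SV arrays. It was 0.930 for Il17rb (563 against 1107 to 1165), 0.943 for Il1r1 (985 against 2408 to 2541) and 0.865 for Il1r2 (52.7 against 177 to 214). In Il1a it was SV replicate 1, with a gap of 0.947 and a signal of 1.05 against 56.1 to 70.1.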

How the results depend on the processing

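No called difference changed direction. Among the log2 fold changes of the 24 named genes, 1644 values under alternatives kept their direction and side of the threshold. These include differences without a call, which had no call to lose. A call was lost in 133 values and gained in 42. Another 44 values, of 17 differences with no call (adjusted p of 0.269 or more), changed sign. Il17rd in SV against ST and Il17rc in SV against RT kept their calls in 1 and 2 of the 11 fits that leave out 1 array. Il33 and Il17rb in RT against ST were called under all 26 alternatives, of which 11 leave out 1 array.

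Counts of interleukin genes moved as follows. With the methods' t-test without adjustment, 8 were higher (3 ligands) and 2 lower (2 ligands) in SV against ST, and 1 ligand was lower in RT against ST. With its Benjamini-Hochberg adjustment, 0 were higher in SV against ST (receptors 0, ligands 0), 0 were higher (receptors 0) and 1 was lower (a ligand, with receptors 0) in SV against RT, and 1 receptor and 1 ligand were lower in RT against ST. A fit of the 2 groups compared gave 2 higher in SV against ST (1 receptor) and 1 ligand lower in RT against ST. Quantile normalization gave 2 receptors higher in SV against RT. Median centring gave 4 receptors lower in RT against ST and 3 receptors higher in SV against RT. In RT against ST it removed the calls of Il16, at 1.03 (adjusted p = 0.127), and Il12rb2, at 2.14 (adjusted p = 0.0629). It also removed the calls of Il1r1 in SV against ST and of Il17rc in SV against RT, the latter at -0.94 (adjusted p = 0.0771). Median centring moves the median of all probe sets in RT against ST from 0.13 to -0.29, and quantile normalization moves it to -0.07. Adding 32 to the signal gave 1 lower in RT against ST (receptors 0, ligands 1) and 0 higher in SV against RT (receptors 0). A floor of 32 gave 2 higher in SV against ST (1 receptor) and 1 ligand lower in RT against ST. Without dim probe sets 2 ligands were higher in SV against ST. Without the trend 2 were higher in SV against ST (1 receptor) and 2 receptors were lower in SV against RT. With 1 probe set per gene 3 ligands were higher in SV against ST. Without a fold threshold 4 receptors were lower in RT against ST and 3 receptors higher in SV against RT. The causes were not tested.

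With the replicate block, 1 receptor was lower in RT against ST and 3 ligands were higher in SV against ST; beside the calls given for Il10ra, Il18bp, Il24, Il7, Il1rl2 and Il6, it changed no other call of the 72 genes. With replicates 1 and 2 against 3 and 4 as a block, 1 receptor was lower in RT against ST, 3 ligands were higher in SV against ST and 1 ligand, Il6, was lower in SV against ST. In replicates 1 and 2 alone, 8 were higher in SV against ST (3 ligands), and in SV against RT 2 were higher and 2 receptors lower. In replicates 3 and 4 alone, where the lone RT array is taken to have the spread of the other regions, 2 were higher in RT against ST (1 receptor, 1 ligand) and 0 lower (receptors 0). There 0 were higher in SV against ST (receptors 0, ligands 0), and in SV against RT 0 were higher (receptors 0) and 0 lower (receptors 0, ligands 0), where limma has few arrays left.

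With each array left out in turn, RT against ST gave 10 to 13 higher (6 to 7 receptors, 4 to 5 ligands) and 0 to 3 lower (0 to 3 receptors, 0 to 1 ligands). SV against ST gave 2 to 8 higher (1 to 3 receptors, 1 to 4 ligands) and 0 to 1 lower (0 receptors, 0 to 1 ligands). SV against RT gave 0 to 3 higher (0 to 3 receptors, 0 ligands) and 3 to 7 lower (2 to 4 receptors, 1 to 4 ligands). The log2 fold changes that changed sign were the following. With quantile normalization, values were Il18 -0.048 in SV against ST and Il16 0.040 in SV against RT. With median centring, values were Il18 -0.21 in RT against ST, Il18 -0.11 in SV against ST and Il16 0.078, Il17rb 0.0068 and Il18 0.10 in SV against RT. With 32 added, values were Il1a 0.20 in SV against RT. With a floor of 32, values were Il1a 0.50 in SV against RT. In replicates 1 and 2, values were Il16 0.19, Il17rb 0.034 and Il6ra -0.029 in SV against RT. In replicates 3 and 4, values were Il1b 0.23, Il1rap 0.057 and Il6 0.33 in RT against ST, Il18 -0.27, Il1rap 0.0089, Il3ra 0.085 and Il6ra 0.081 in SV against ST and Il1a 0.55, Il1r1 -0.25, Il1r2 -0.091 and Il1rap -0.048 in SV against RT. With 1 array left out, ranges that crossed zero were Il1b -0.14 to 0.037, Il6ra -0.26 to 0.065 and Il1rap -0.21 to 0.053 in RT against ST. Further ranges were Il6ra -0.15 to 0.17, Il1a -0.97 to 1.05, Il1rap -0.033 to 0.11 and Il16 -0.49 to 0.13 in SV against RT. Further ranges were Il18 -0.11 to 0.15, Il3ra -0.12 to 0.042, Il1rap -0.16 to 0.10 and Il6ra -0.23 to 0.057 in SV against ST.

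Of the 41 genes that lay below the median of all values in every region, 1 was called. Genes bright in 1 region fall outside this group by definition, so the count does not show that dim signal limited the calls.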
